A study of Mus musculus with 2 samples.

Results

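Small nucleolar RNAs (snoRNAs) and their host genes were compared in kidney RNA of Iah1-KO mice, which carry a systemic knockout of Iah1, and Iah1-WT mice. Members were taken from the probe sets that GEO's platform annotation gives exactly 1 symbol: symbols starting with Snord (C/D box), Snora (H/ACA box) or Scarna (Cajal body), and Snhg followed by a number (host genes), with no expression floor. This gave 99 probe sets of 93 genes, out of 23521 probe sets with 1 symbol and 41345 in all: 47 C/D, 28 H/ACA, 6 Cajal body and 18 host gene probe sets. The host gene Gas5 was also sought, but its only probe set carries a second symbol, so it is described apart and is in no count of members. All mice were male, ate standard chow up to an age of 6 weeks, then high-fat food over 12 weeks, and were killed after 4 hours without food. Each genotype was measured on 1 Affymetrix array that carried pooled RNA of 3 mice. Nothing below has a replicate check, so no test between genotypes is possible, and a difference (Iah1-KO minus Iah1-WT, log2) describes these pools. Per the series labels the knockout is systemic; which bases of Iah1 were deleted is not known here.

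snoRNAs guide chemical changes on other RNAs by base pairing. C/D box snoRNAs carry the methyltransferase fibrillarin to ribosomal RNA and direct 2′-O-methylation, H/ACA box snoRNAs carry dyskerin and direct pseudouridylation, and small Cajal body RNAs do the same on spliceosomal RNAs. Most mammalian snoRNAs are cut from introns of a host gene, which is either a protein-coding gene (often for a ribosomal protein or a translation factor) or a non-coding Snhg gene whose spliced RNA is commonly degraded by nonsense-mediated decay. A probe set over a snoRNA can therefore read the mature snoRNA and unspliced host RNA, and these cannot be told apart here.

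The values are log2 RMA values, which set each probe set on its own scale, so a higher value of a gene is not a larger amount than that of another gene. The targeted gene Iah1 (probe set 17274471) was at 3.60 in the Iah1-KO pool and 9.09 in the Iah1-WT pool. Of the markers of kidney cell types, the 5 proximal tubule genes lay between 10.54 and 12.67 in the Iah1-KO pool and between 10.43 and 12.62 in the Iah1-WT pool. Single markers of other kidney cells differed as much as the members did: Atp6v1g3 of intercalated cells by -0.81 (Slc4a1 0.18, Slc26a4 -0.09), Lyz2 of macrophages by 0.63 (Csf1r 0.11, Cd68 -0.23) and Aqp2 of principal cells by 0.49 (Scnn1g 0.16). The 3 fat markers lay between 3.44 and 4.44 in the Iah1-KO pool and between 3.57 and 4.61 in the Iah1-WT pool, with Lep at -0.65, Adipoq at -0.12 and Plin1 at 0.10. The adrenal markers were at 2.53 (Cyp11b1) and 4.17 (Star) in the Iah1-KO pool and at 2.12 (Cyp11b1) and 4.39 (Star) in the Iah1-WT pool. The part of these cell types in the members' differences was not tested. In bulk tissue, fewer cells of a type and less RNA per cell cannot be told apart. The level of genes with little kidney expression was read from 1108 olfactory receptor probe sets, whose 95th percentile was 3.76 in the Iah1-KO and 3.81 in the Iah1-WT pool. Above it in both pools were 40 of 47 C/D, 24 of 28 H/ACA, 5 of 6 Cajal body and 18 of 18 host gene probe sets. Of the other 12, 9 were at or below it in both pools and 3 above it in 1 pool: Snord118 and Snora2b in Iah1-KO, and Snord85 in Iah1-WT. Plin1, Lep and Star were also above it in both pools.

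The promoters of 3 host genes are shown: Snhg12 and Snhg3 hold H/ACA snoRNAs that were lower in the Iah1-KO pool, and Snhg17 has the host gene probe set furthest lower. Any part of these promoters in the differences was not tested. Each window runs from 250 bases before to 50 after a transcription start, from RefSeq on GRCm38.p6, 5′ to 3′ on the gene's strand. Capitals mark pyrimidines that run unbroken from the first transcribed base, and matches to CCAAT or CCGGAAG on either strand. Host gene RNAs are known to begin with a terminal oligopyrimidine tract, like those of ribosomal proteins. The Snhg12 window is chr4:132308428-132308727 on the plus strand, the Snhg3 window chr4:132353637-132353936 on the minus strand, and the Snhg17 window (the start with the pyrimidine run, of 2 annotated) chr2:158361460-158361759 on the minus strand.
Snhg12: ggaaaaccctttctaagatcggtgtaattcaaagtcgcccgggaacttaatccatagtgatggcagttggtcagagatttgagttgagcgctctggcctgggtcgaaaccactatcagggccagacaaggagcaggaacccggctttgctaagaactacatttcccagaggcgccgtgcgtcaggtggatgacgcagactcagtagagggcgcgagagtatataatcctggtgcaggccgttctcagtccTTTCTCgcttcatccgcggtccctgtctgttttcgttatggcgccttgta
Snhg3: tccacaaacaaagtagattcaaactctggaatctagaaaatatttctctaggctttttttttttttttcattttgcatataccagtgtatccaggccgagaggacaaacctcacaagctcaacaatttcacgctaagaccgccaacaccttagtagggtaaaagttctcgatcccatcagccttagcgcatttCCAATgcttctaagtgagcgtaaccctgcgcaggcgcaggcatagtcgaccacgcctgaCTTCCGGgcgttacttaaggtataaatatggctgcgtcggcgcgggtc
Snhg17: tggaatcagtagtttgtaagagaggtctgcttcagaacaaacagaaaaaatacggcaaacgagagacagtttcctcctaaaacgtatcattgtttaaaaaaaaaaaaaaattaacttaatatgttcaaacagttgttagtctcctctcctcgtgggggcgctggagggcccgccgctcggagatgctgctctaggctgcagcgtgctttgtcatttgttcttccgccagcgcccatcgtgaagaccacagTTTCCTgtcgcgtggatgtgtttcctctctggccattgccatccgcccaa
Snhg12 and Snhg17 each begin with 6 pyrimidines, TTTCTC and TTTCCT, and Snhg3 with none at its annotated start. For these counts the host gene windows were 18 of 16 genes, a set that is not that of the 18 member probe sets. It includes Gas5, Snhg8 and Snhg16, which are not members, and lacks the members Snhg4 and Snhg6. A run of at least 5 was present in 6 of the 18 windows (33.3%) and in 4.44% of 32851 windows of all genes. A run of at least 5 that starts with C was present in 3 (16.7%) and 2.51%. The runs of Gas5 and Snhg8 are among both counts. CCGGAAG, a core of ETS family sites, occurred in 4 host windows (22.2%, against 8.86% of all windows), CCAAT in 5 (27.8%, against 37.4%) and the palindrome known as the motif of Kaiso (Zbtb33), searched as 1 exact form, in 0 (against 0.466%). These are matches of letters and do not show binding.

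Across all classes the members had a median difference near 0, but a larger share of them lay far from 0 than of all probe sets. Their median difference was -0.02, beside 0.00 over the 23521 probe sets with 1 symbol; 39 were higher and 60 lower in the Iah1-KO pool. Centring both arrays on their medians adds 0.03 to every difference and moves the median of all probe sets with 1 symbol to 0.03, so directions of that size are open to the scaling; 58 members were then higher and 41 lower. At least 1.5-fold higher were 4 member probe sets (4.04%), where 1.01% of all probe sets with 1 symbol were, and at least 1.5-fold lower were 4 (4.04%), where 1.46% were. Of 511 microRNA hairpin probe sets, 3.91% were at least 1.5-fold higher and 2.94% lower, so such shares are not particular to the members. Of those 511, 398 had a mean of both arrays under 4, a lower level than that of most members. At a mean of 6 or more, 3 of 64 members (Snhg17, Snora44 and Snord72) were at least 1.5-fold lower, where 0.157% of all were, and 0 were higher, where 0.144% were. None of the 99 reached 2-fold in either direction, a size that 0.0893% of all probe sets with 1 symbol passed upward and 0.106% downward. The higher ones were Snora75, Snord83b and both probe sets of Snora19, which hold identical values and are 1 measurement. The lower ones were Snora44, Snord72 and 2 of 3 probe sets of Snhg17. The spread narrows with level, so level matters in reading a difference. The middle 95% of probe sets with 1 symbol ran from -0.56 to 0.51 at a mean of both arrays under 4. It ran from -0.55 to 0.51 at 4 to 6, and from -0.31 to 0.36 at 6 to 8. At 8 or more it ran from -0.22 to 0.23. Below the middle 95% of their level lay 4 of 47 C/D, 7 of 28 H/ACA and 3 of 18 host gene probe sets. Above it lay 3 C/D, 3 H/ACA and 2 host gene probe sets, and no Cajal body probe set lay outside. Of all probe sets with 1 symbol, 2.51% lay on each side.

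**Figure D1:**
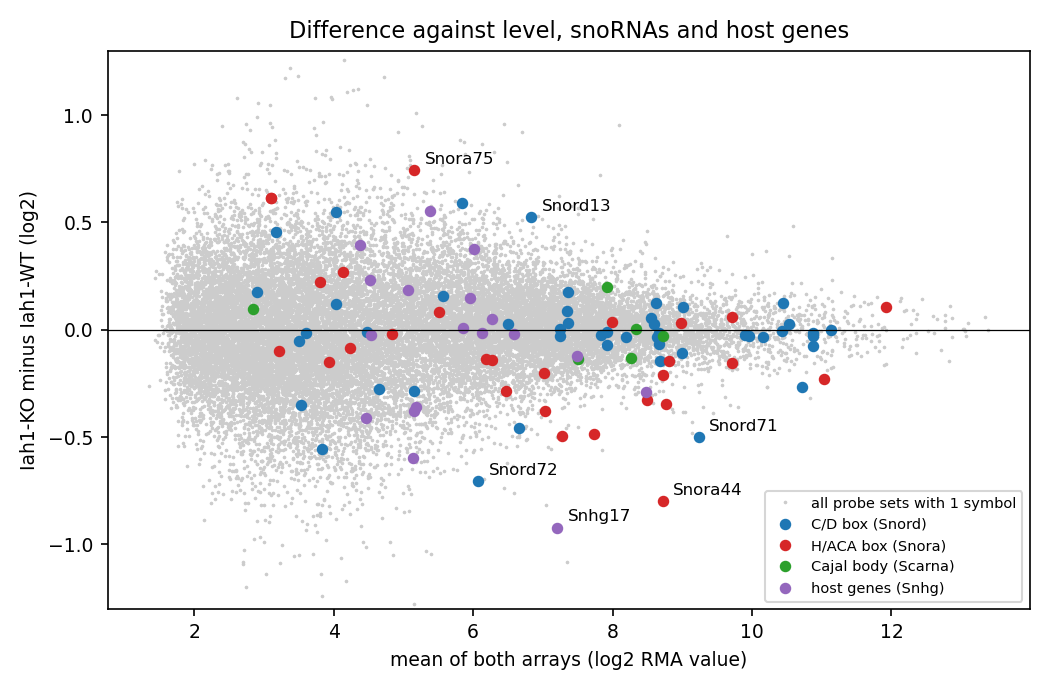
Difference (Iah1-KO minus Iah1-WT, log2) against the mean of both arrays (log2 RMA value) for the 99 member probe sets, coloured by class, over all probe sets with 1 symbol in grey; grey points beyond the vertical axis range are not drawn. Most blue C/D points above a mean of 8 lie near 0, most red H/ACA points there lie below 0, and Snhg17, Snora44 and Snord72 stand lowest among the members.

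H/ACA snoRNAs with a mean of 6 or more were mostly lower in the Iah1-KO pool. Counting them at this level was not planned and was added after the data were seen. Of the 18 H/ACA probe sets with a mean of 6 or more, 14 were lower (77.8%) and 4 higher, with a median difference of -0.20 in the Iah1-KO pool, which is a median change of -13.2% on the linear scale. Over the 7626 probe sets with 1 symbol at that level, 47.7% were lower and the median was 0.01. Below the middle 95% of probe sets of their own level lay 7 of the 18, where 2.51% of all probe sets with 1 symbol did, and above it 0. Among the 7, Snora44, Snora61 and Snora16a share the holder Snhg12. MicroRNA hairpins, also short RNA genes, had a wider middle 95% at that level, from -0.5048 to 0.64 over 29 probe sets. Of the 18, Snora44 alone lay below that range. The 10 H/ACA probe sets with a mean under 6 ran the other way, with 6 higher, 4 lower and a median of 0.15, and they include the 4 H/ACA probe sets not above the olfactory receptor 95th percentile in both pools. Over all 28 the median was -0.14 and the mean -0.0682. After centring, 14 of the 18 were still lower, with a median of -0.17 beside 0.04 for all at that level.

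Snora44 was at 8.32 in the Iah1-KO pool and 9.12 in the Iah1-WT pool, a difference of -0.80 (1.74-fold lower in the Iah1-KO pool). Among the 2436 probe sets with 1 symbol and a mean of 8 or more it was the lowest by difference, and 0.0411% of them (Snora44 itself) were at least 1.5-fold lower. Next came a C/D snoRNA, Snord71 (8.99 in Iah1-KO and 9.49 in Iah1-WT, difference -0.50, ranked 2 of 2436). Snora31, which lies within the translationally controlled tumour protein gene Tpt1, was at 7.02 in the Iah1-KO and 7.52 in the Iah1-WT pool. Snora47, within Zbed3, was at 7.48 in the Iah1-KO and 7.97 in the Iah1-WT pool. These differed by -0.50 and -0.49, ranks 31 and 35 from the lowest among 7626.

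Snora61 was at 6.84 in the Iah1-KO and 7.22 in the Iah1-WT pool (-0.38). Snora28, within the translation initiation factor gene Eif5, was at 8.59 in the Iah1-KO and 8.94 in the Iah1-WT pool (-0.35). Snora16a was at 10.92 in the Iah1-KO and 11.15 in the Iah1-WT pool (-0.23). Together with Snora44, Snora31, Snora47 and Snora73a these are the 7 below the middle 95% of their level.

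Snora73a and Snora73b are copies of U17, which is needed for an early cleavage of the precursor of 18S ribosomal RNA rather than for pseudouridylation, and which in cultured rodent cells also affects cholesterol movement to mitochondria. Snora73a was at 8.33 in the Iah1-KO and 8.66 in the Iah1-WT pool (-0.33), and Snora73b at 8.62 in the Iah1-KO and 8.83 in the Iah1-WT pool (-0.21). Both copies were thus lower, but their sequences are alike and their probe sets may read each other's RNA. Among the remaining lower members, Snora7a was at 6.33 in Iah1-KO and 6.61 in Iah1-WT, and Snora30 at 6.92 in Iah1-KO and 7.12 in Iah1-WT. Snora34 was at 9.64 in Iah1-KO and 9.79 in Iah1-WT. Snora23, Snora69 and Snora68 differed by -0.14 each.

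The 4 higher at this level were close to 0. Snora33, within the ribosomal protein gene Rps12, was at 11.97 in the Iah1-KO and 11.87 in the Iah1-WT pool. Snora21 differed by 0.06, Snora62 (also called E2) by 0.04 and Snora15 by 0.03. A second Snora33 probe set was at 4.83 in the Iah1-KO and 4.85 in the Iah1-WT pool. The probe sets of this gene therefore differ widely in signal while neither differed by more than 0.11 between the pools.

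**Figure D2:**
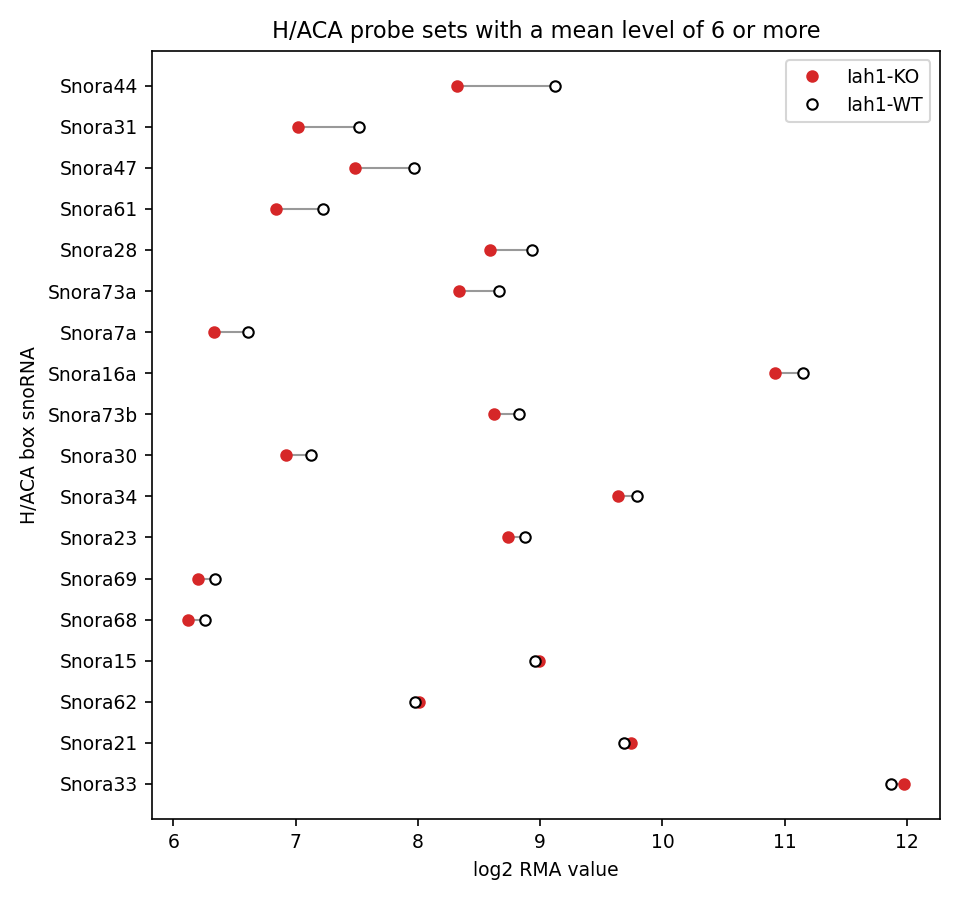
Log2 RMA value (horizontal) of the 18 H/ACA probe sets with a mean of 6 or more, 1 row each, with Iah1-KO filled and Iah1-WT open and each row being 1 array per genotype. The filled point lies left of the open one in 14 rows, furthest for Snora44 (8.32 against 9.12), and right of it in 4.

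H/ACA members below a mean of 6 held the largest upward differences. Snora75, within the nucleolin gene Ncl, was at 5.53 in the Iah1-KO and 4.79 in the Iah1-WT pool, the highest difference of any member (0.74). Both Snora19 probe sets were at 3.42 in the Iah1-KO and 2.80 in the Iah1-WT pool (0.61), below the olfactory receptor 95th percentile in both pools. Snora78 differed by 0.27 and Snora2b by 0.22. Snora35, which lies in the serotonin receptor gene Htr2c and is known from brain, was at 3.16 in Iah1-KO and 3.26 in Iah1-WT, and its holder Htr2c at 2.31 in Iah1-KO and 2.74 in Iah1-WT. Of all probe sets with 1 symbol and a mean under 4, 1.42% were at least 1.5-fold higher.

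C/D snoRNAs had a median difference of -0.02 over 47 probe sets (0.02 after centring). At a mean of 6 or more their robust SD (scaled median absolute deviation) was 0.07, beside 0.20 for H/ACA members and 0.13 for all probe sets with 1 symbol. At a mean under 6 it was 0.40 over 13 C/D probe sets, beside 0.36 for H/ACA members and 0.25 for all. At a mean of 6 or more, 22 of 34 were lower and 12 higher, with a median of -0.02, whereas after centring 24 were higher and 10 lower. Of these 34, 4 lay below and 1 above the middle 95% of their level, where 2.51% of all probe sets with 1 symbol lay on each side. The middle 95% of the 34 ran from -0.54 to 0.24, beside -0.29 to 0.32 for all at that level. Their lower tail was thus longer although their robust SD was smaller. Snord99 was at 11.14 in both pools, and Snord16a at 10.84 in Iah1-KO and 10.91 in Iah1-WT. Snord55 was at 10.87 in Iah1-KO and 10.90 in Iah1-WT, and Snord22 at 10.87 in Iah1-KO and 10.88 in Iah1-WT. Snord104 was at 10.58 in Iah1-KO and 10.85 in Iah1-WT. Of these 5, Snord104 alone lay below the middle 95% of its level. Snord22 is U22, a C/D snoRNA needed to process 18S ribosomal RNA.

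The C/D members furthest lower were Snord72, Snord85, Snord71, Snord73a and Snord37. Snord72, within the ribosomal protein gene Rpl37, was at 5.72 in the Iah1-KO and 6.43 in the Iah1-WT pool (-0.70), whereas Rpl37 itself was at 4.76 in Iah1-KO and 4.33 in Iah1-WT. Snord73a was at 6.44 in the Iah1-KO and 6.89 in the Iah1-WT pool (-0.46), and Snord73b of the same holder, Rps3a1, at 8.95 in Iah1-KO and 9.06 in Iah1-WT. Snord85 (3.56 in Iah1-KO and 4.11 in Iah1-WT) and Snord37 (3.36 in Iah1-KO and 3.71 in Iah1-WT) were below the olfactory receptor 95th percentile, Snord37 in both pools and Snord85 in Iah1-KO. Among members above a mean of 6 the lower C/D snoRNAs Snord72, Snord71 and Snord73a ranked 9, 27 and 42 from the lowest of 7626.

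The C/D members furthest higher included Snord118 and Snord13, which are known to be transcribed from promoters of their own. Snord118 is U8, needed to mature 5.8S and 28S ribosomal RNA, and Snord13 is U13, which guides acetylation of 18S ribosomal RNA by the acetyltransferase Nat10. Snord118 was at 4.31 in the Iah1-KO and 3.76 in the Iah1-WT pool (0.55), with the Iah1-WT value below the olfactory receptor 95th percentile. Snord13 was at 7.09 in the Iah1-KO and 6.57 in the Iah1-WT pool (0.52), which ranked 7603 of 7626 from the lowest, and Nat10 was at 6.53 in Iah1-KO and 6.45 in Iah1-WT. Within no protein-coding or long non-coding RNA gene of the RefSeq table lay these and Snord89 (-0.04) and Scarna2 (8.34 in both pools). Other kinds of gene were not searched, and this does not show how Snord89 and Scarna2 are transcribed. Snord83b, within Rpl3, was at 6.14 in the Iah1-KO and 5.55 in the Iah1-WT pool (0.59). Snord19 was at 3.40 in Iah1-KO and 2.94 in Iah1-WT, and Snord66 at 7.45 in Iah1-KO and 7.27 in Iah1-WT.

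Snord35a lies in Rpl13a with Snord32a, Snord33 and Snord34. Snord32a, Snord33 and Snord35a are known from cultured rodent cells to be needed for cell death under excess saturated fatty acid. Snord35a was at 9.07 in the Iah1-KO and 8.96 in the Iah1-WT pool (0.11). The other 3 share their probe sets' annotation with Rpl13a. The one that carries Snord32a and Rpl13a was at 12.45 in Iah1-KO and 12.47 in Iah1-WT. The one with Snord34 and Rpl13a was at 8.66 in Iah1-KO and 8.84 in Iah1-WT, and the one with Snord33, Mir5121 and Rpl13a at 7.96 in Iah1-KO and 7.98 in Iah1-WT. None of the 4 left the middle 95% of its level.

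Cajal body RNAs showed no difference beyond the middle 95% of their level. Scarna6, within the autophagy gene Atg16l1, was at 8.02 in the Iah1-KO and 7.83 in the Iah1-WT pool (0.20). Scarna10 was at 8.20 in Iah1-KO and 8.33 in Iah1-WT and Scarna2 at 8.34 in both. The Scarna17 probe sets were at 7.43 and 8.71 in the Iah1-KO pool and at 7.57 and 8.74 in the Iah1-WT pool. Scarna8 was at the dim level (2.89 in Iah1-KO and 2.79 in Iah1-WT). The class median was -0.01 over 6 probe sets, 3 higher and 3 lower (4 and 2 after centring).

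**Figure D3:**
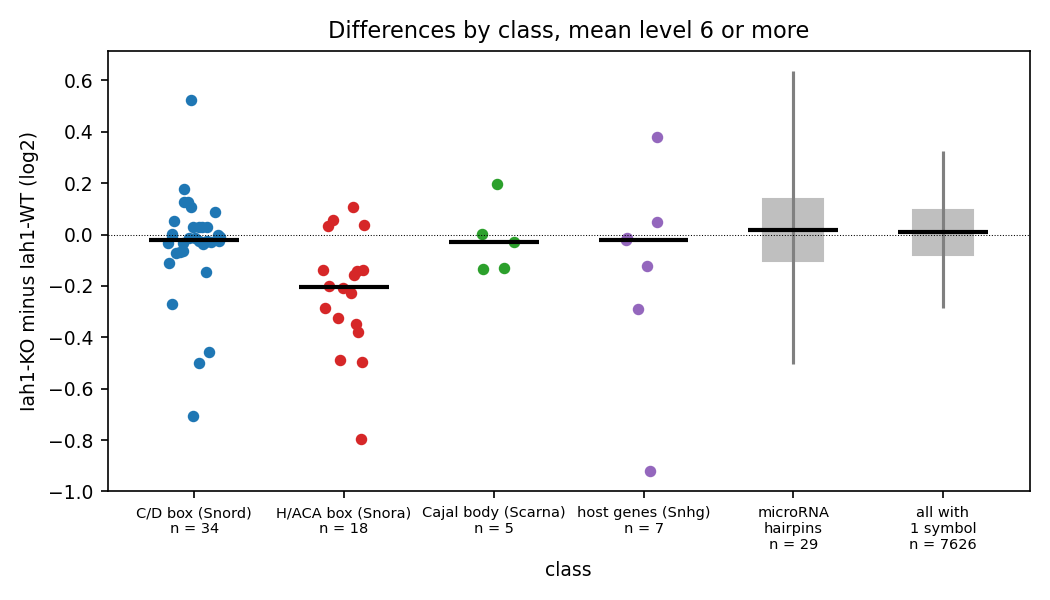
Difference (Iah1-KO minus Iah1-WT, log2) of probe sets with a mean of 6 or more, by class: each point is a member probe set and each black line a median; for microRNA hairpins and for all probe sets with 1 symbol, boxes give the quartiles and thin lines the middle 95%. The H/ACA median is -0.20, beside -0.02 for C/D and 0.01 for all.

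MicroRNA hairpins served as short RNA genes of another kind. Of 29 microRNA hairpin probe sets with a mean of 6 or more, 15 were higher and 14 lower in the Iah1-KO pool, with a median of 0.02. Their middle 95% ran from -0.50 to 0.64, wider than that of all probe sets with 1 symbol at this level (-0.29 to 0.32), so these short RNA genes scattered more. At a mean of 8 or more, 5 of 7 microRNA hairpins were lower (median -0.10), as were 16 of 22 C/D (-0.03) and 7 of 10 H/ACA probe sets (-0.18). Of all probe sets with 1 symbol there, 51.1% were lower. At 6 to 8, 9 of 22 microRNA hairpins, 6 of 12 C/D and 7 of 8 H/ACA probe sets were lower. Per the labels' protocols the RNA passed over a spin column of a kind known to keep short RNAs poorly. Annotated length had little relation to level or difference over 81 snoRNA probe sets of 48 to 248 bases: Pearson's r was 0.07 with the level (Spearman's rho 0.10) and -0.02 with the difference (rho -0.07). Within the 28 H/ACA probe sets, r was 0.35 with the level (rho 0.42) and -0.24 with the difference (rho -0.23). These points share the arrays and some share a holder, and the part of the column in the differences was not tested.

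Probe sets that carry a snoRNA or host gene symbol beside another symbol were no members and are described apart. There were 47, of which 32 hold different values, the one of Gas5 and Mir5117 included. The 16 annotated to Gm26504, Snord116l1 and Snord116l2 were identical, at 3.55 in the Iah1-KO and 3.28 in the Iah1-WT pool. This family is known from brain. Of 7 with a Snora symbol and a mean of 6 or more, 6 were lower and 1 higher, with a median of -0.17. The 2 annotated to Snora17 and Snhg7 were at 6.16 and 6.53 in the Iah1-KO pool and at 7.01 and 6.89 in the Iah1-WT pool, differences of -0.85 and -0.36. Of 12 with a Snord symbol at that level, 8 were lower and 4 higher, with a median of -0.03 and a range of -0.20 to 0.20. These Snora and Snord probe sets had medians near those of the members of their class. They were read on the same 2 arrays, so they are no independent check. Each may also read RNA of its other symbol, and 2 of the 7 are of 1 snoRNA, Snora17.

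Host genes differed in both directions. Over 18 probe sets of 15 genes the median was -0.02, with 8 higher and 10 lower (11 and 7 after centring). At a mean of 4 to 6, where 11 of the 18 lay, their robust SD was 0.55, against 0.24 for all probe sets with 1 symbol. Snhg17 has 3 probe sets. Probe set 17393841 was at 6.74 in the Iah1-KO and 7.67 in the Iah1-WT pool (-0.92), which ranked 4 from the lowest of 7626. Probe set 17393839 was at 4.84 in Iah1-KO and 5.44 in Iah1-WT (-0.60, or -0.56 after centring, short of 1.5-fold) and probe set 17393825 at 5.15 in Iah1-KO and 4.97 in Iah1-WT (0.19), so the gene's probe sets did not share a direction. Where in the gene each one lies was not analysed here.

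Snhg11 and Snhg17 are neighbours in the RefSeq table of chromosome 2, on opposite strands. Snhg11, known as a neuronal transcript, was at 8.34 in the Iah1-KO and 8.63 in the Iah1-WT pool by probe set 17378848 (-0.29). The neuronal markers Snap25 (2.83 in Iah1-KO and 3.31 in Iah1-WT) and Rbfox3 (4.96 in Iah1-KO and 5.36 in Iah1-WT) were lower in Iah1-KO. Both differences lay inside the middle 95% of their level, and Snap25 was below the olfactory receptor 95th percentile in both pools. The part of these markers in the Snhg11 value was not tested. Its other probe set, 17378856, was at 5.66 in the Iah1-KO and 5.11 in the Iah1-WT pool (0.55). Both Snhg11 and Snhg17 thus hold probe sets outside the middle 95% of their level, Snhg11 on opposite sides.

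Snhg12, Snhg5 and Snhg7 were lower in the Iah1-KO pool within the spread of their level. Snhg12, which holds 4 members, was at 4.97 in the Iah1-KO and 5.35 in the Iah1-WT pool (-0.38). Snhg5 was at 4.26 in Iah1-KO and 4.67 in Iah1-WT (-0.41), and Snhg7 at 5.002 in Iah1-KO and 5.36 in Iah1-WT (-0.36). Snhg4 and Snhg15 were higher: Snhg4, the host of Snora74a (U19), was at 6.20 in the Iah1-KO and 5.83 in the Iah1-WT pool (0.38), and Snhg15 at 4.57 in Iah1-KO and 4.18 in Iah1-WT (0.39). Of these 5, Snhg4 lay above the middle 95% of its level.

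The other Snhg genes differed by at most 0.23. Snhg14, the precursor of the brain snoRNA clusters of the imprinted Prader-Willi region, was at 4.64 in the Iah1-KO and 4.41 in the Iah1-WT pool. Snhg1, the host of Snord22, was at 6.03 in Iah1-KO and 5.88 in Iah1-WT, and Snhg6 at 7.43 in Iah1-KO and 7.55 in Iah1-WT. Snhg3 was at 6.29 in Iah1-KO and 6.24 in Iah1-WT, and Snhg9 at 5.86 in Iah1-KO and 5.85 in Iah1-WT. Snhg10 was at 4.52 in Iah1-KO and 4.55 in Iah1-WT, and Snhg18 at 6.12 in Iah1-KO and 6.13 in Iah1-WT. Snhg20 was at 6.58 in Iah1-KO and 6.60 in Iah1-WT. The probe set that carries Gas5 and Mir5117 was at 4.20 in the Iah1-KO and 4.47 in the Iah1-WT pool, and Snord47, which lies in Gas5, at 9.89 in Iah1-KO and 9.91 in Iah1-WT.

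**Figure D4:**
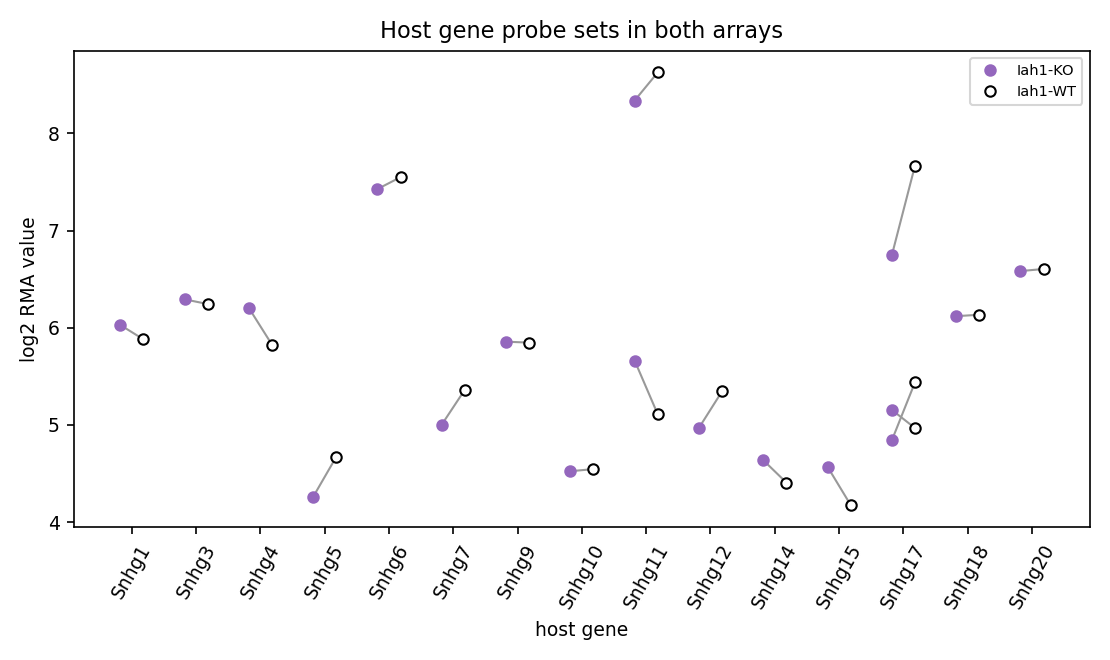
Log2 RMA value of the 18 probe sets of 15 Snhg host genes, with Iah1-KO (filled) left of Iah1-WT (open) and a line joining the values of a probe set. The longest downward step in Iah1-KO is that of a Snhg17 probe set (6.74 against 7.67), while another of its probe sets steps the other way.

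SnoRNAs were then set beside the gene whose annotated span holds them. The table gives no strand for snoRNAs, so a holder is a protein-coding or long non-coding RNA gene that spans the snoRNA on either strand. Of 81 snoRNA probe sets, 77 had a holder, 71 of them exactly 1. With the 2 identical Snora19 probe sets merged, 59 of these had a holder with a probe set of 1 symbol, over 44 holders. Each holder was given by its probe set with the highest mean. Whether that probe set lies within the holder's span was not checked, so some pairs may not read the spanning gene. Across the 59 pairs, the differences of snoRNA and holder had Pearson's r of -0.03 and Spearman's rho of -0.11, and 25 had the same sign. Pairs share arrays, and some share a holder, so this is a description.

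Snhg12 and Snhg3 lie on opposite strands of chromosome 4, with Trnau1ap and Rcc1 in the stretch they span. All 5 measured H/ACA snoRNAs held there were lower in the Iah1-KO pool: Snora44, Snora61 and Snora16a in Snhg12 (-0.80, -0.38 and -0.23) and Snora73a and Snora73b in Snhg3 (-0.33 and -0.21). The C/D snoRNA of Snhg12, Snord99, was at 11.14 in both pools, and so did not share the difference of the 3 H/ACA snoRNAs of its own host. Snhg3 differed by 0.05, Trnau1ap, a selenocysteine tRNA factor, by -0.05, and Rcc1, the exchange factor of the GTPase Ran, by -0.05. Without the 3 of Snhg12, 11 of the other 15 H/ACA probe sets with a mean of 6 or more were lower, with a median of -0.16.

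Other holders of several snoRNAs gave mixed values. The 3 C/D snoRNAs Snord49a, Snord49b and Snord65 of the non-coding gene 2410006H16Rik differed by -0.03, 0.03 and -0.01, beside -0.06 for their holder. Snord69 and Snord19 in Gnl3 (nucleostemin) differed by 0.13 and 0.46, Snord11 and Snord70 in Nop58 by -0.07 and 0.09, and Snord82 and Snora75 in Ncl by 0.13 and 0.74. For Ncl the holder itself was at 8.55 in the Iah1-KO and 8.68 in the Iah1-WT pool, opposite in sign to both of its snoRNAs. The holders of Snora31, Snora47, Snora28 and Snora7a were near 0: Tpt1 differed by 0.08, Zbed3 by 0.02, Eif5 by 0.01 and Rpl32 by 0.06.

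**Figure D5:**
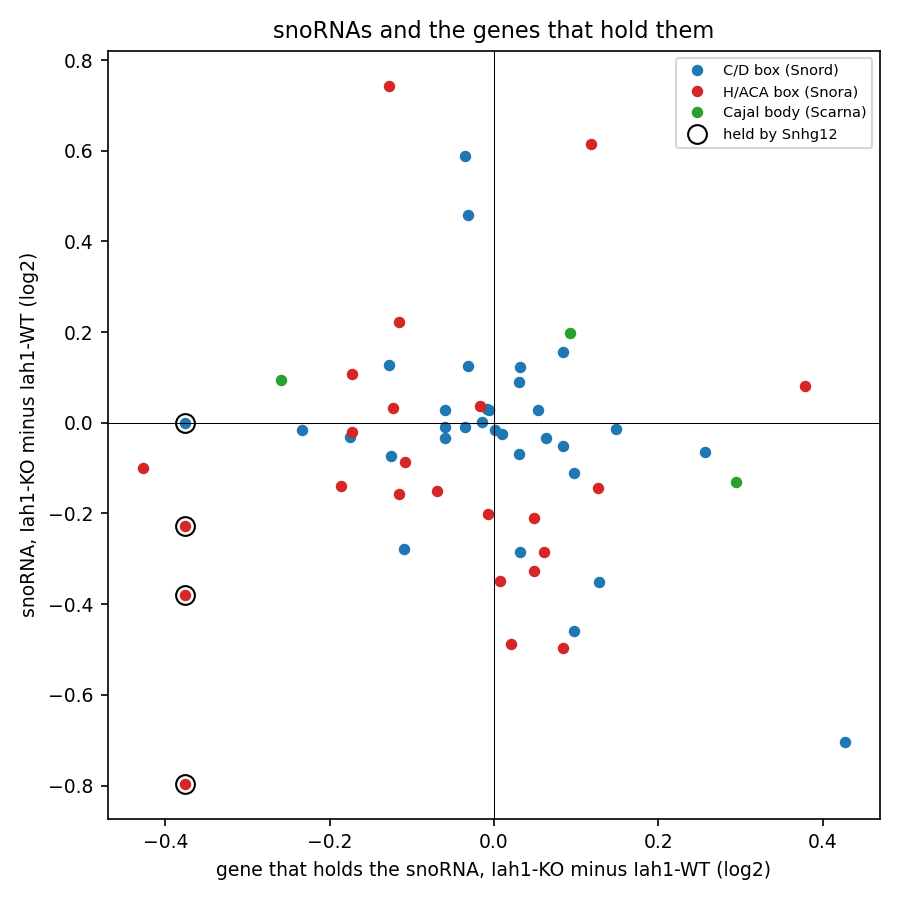
Difference (Iah1-KO minus Iah1-WT, log2) of 59 snoRNAs (vertical) against that of the gene that holds each (horizontal), coloured by class, with the 4 snoRNAs of Snhg12 ringed. The points form no line (Pearson's r of -0.03 across pairs), and 3 of the 4 ringed points lie below 0 while Snord99 lies on it.

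Of the genes for proteins that bind and assemble the snoRNAs, 0 of any of these lists were beyond 1.5-fold in either direction. Of all probe sets with 1 symbol, 1.01% were at least 1.5-fold higher and 1.46% lower. A count of 0 in such short lists therefore says little. Each gene is given by its probe set with the highest mean. The core H/ACA proteins were all lower in the Iah1-KO pool by small amounts (median -0.11 over 4, or -0.08 after centring, where Nop10 turns to the higher side). The structural protein Gar1 was at 5.89 in the Iah1-KO and 6.04 in the Iah1-WT pool, and Nhp2 at 7.03 in Iah1-KO and 7.17 in Iah1-WT. The pseudouridine synthase Dkc1 was at 5.78 in Iah1-KO and 5.86 in Iah1-WT, and Nop10 at 9.92 in both. Of the core C/D proteins, 3 were measured by a probe set with 1 symbol: Nop56 differed by -0.17, Snu13 by -0.08 and Nop58 by 0.03. Nop56 has 2 further probe sets, which differed by -0.35 and 0.33, and Snu13 1 more, by 0.01. Each of the 7 values from the highest probe sets lay inside the middle 95% of its level. The median over all 23521 probe sets was 0.00.

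Assembly factors had a median of 0.02 over 11, with 6 higher and 5 lower; the chaperone component Rpap3 was furthest higher (0.30) and Nop53 furthest lower (-0.23). Of the Cajal body and capping proteins, coilin (Coil) differed by 0.14, Wrap53 by -0.14 and the cap hypermethylase Tgs1 by 0.03. Nonsense-mediated decay factors had a median of 0.07 over 7, with 4 higher and 3 lower, from Upf1, the helicase at the centre of the pathway, at -0.23, to Smg8 at 0.12. Ribosome biogenesis factors had a median of 0.05 over 19, with 13 higher and 6 lower. Utp15, of the small subunit processome, was furthest higher (6.39 in the Iah1-KO and 6.06 in the Iah1-WT pool) and Polr1b, of RNA polymerase I, furthest lower (5.73 in Iah1-KO and 5.97 in Iah1-WT).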

How the data were processed

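The authors deposited log2 values for each probe set. The submitters' processing notes name RMA and Affymetrix Expression Console 1.3.0. RMA brings both arrays to 1 common distribution, which removes any shift that most transcripts share and shrinks differences near the background. No source used here gives detection calls or the build behind the array's annotation, and precision is limited by the number of arrays. Per the labels, RNA input was 100 ng.

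Symbols came from GEO's platform annotation (23521 probe sets with 1 symbol, 1814 with several, 16010 with none); all 93 member genes had the same symbol in the RefSeq table of GRCm38.p6. Computation used pandas 2.3.3 and numpy 2.4.6 under Python 3.11.15, with lowess from statsmodels 0.14.6. Levels were binned by the mean of both arrays at 4, 6 and 8. Loess used a span of 0.3 and was tested on simulated data. The members, lists and thresholds were chosen with earlier results of these data known. Named genes were all host genes; per snoRNA class the 5 probe sets furthest higher, the 5 furthest lower, the 5 with the highest mean, and the extremes at a mean of 6 or more; and the extremes of each partner list. Further members and holders were named after their values were seen. Alternatives were a floor, centring, loess, probe sets per gene, shared symbols, the mean and a 2-fold threshold.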

Additional observations from a re-analysis of the deposited data

How the results depend on the processing

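With 1 array per genotype, no replicate could be left out and nothing here was tested. No paired analysis was possible because each genotype has 1 array. Depth is not defined for arrays; 9 of the 99 member probe sets lie at the level of dim genes in both pools and 3 in 1 pool. The H/ACA median (-0.14) was -0.20 with a floor of log2 6 and -0.0682 as a mean, and stayed below 0 in every alternative run. Centring on the array medians, which adds 0.03, turned the C/D median to 0.019 and the median of all members to 0.0118. The count of members at least 1.5-fold higher (4) was 2 with a floor of log2 4, 1 with a floor of log2 6 and 0 at 2-fold; the count lower (4) was 2 with the mean over a gene's probe sets and 0 at 2-fold, where fewer probe sets pass by construction. The count of H/ACA probe sets lower at a mean of 6 or more (14 of 18) was not planned. Both this count and its alternatives were added after the data were seen. It was 14 under centring, loess and 1 value per gene, 14 of 20 at a mean of 5 or more and 11 of 15 at 7 or more. Of 54 named probe sets, 4 crossed 1.5-fold under centring or loess and 0 changed sign among those beyond it.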
